A study of Mus musculus with 8 samples.

Results

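Receptors for glutamate, GABA, glycine, acetylcholine and serotonin are described here in the brain, kidney and liver of male mice that drank lead acetate or distilled water. The genes were chosen by name alone: AMPA, kainate and delta glutamate receptor subunits (Gria, Grik, Grid), metabotropic glutamate receptors (Grm), GABA-A subunits of the alpha, beta, gamma, delta, epsilon and rho classes (Gabr), glycine receptor alpha subunits (Glra), nicotinic acetylcholine receptor subunits (Chrn) and serotonin receptors (Htr). NMDA receptor subunits were not included. The rule found 70 of the 37069 gene names on the array, read by 137 of its 56605 probes.

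The groups were brain control (distilled water), brain low (100 mg/L lead acetate) and brain high (1000 mg/L), the same 3 groups for kidney, and liver at the high dose and liver control. Exposure through the drinking water lasted 3 weeks. RNA came from small pieces of each organ kept in RNAlater, and 50 ng was labelled with the dye Cy3 for Agilent 1-colour arrays. Each of the 8 groups had 1 array, so a difference between doses within a tissue has no replicate check and carries no p-value, and the labels do not say how many animals a sample holds, nor their strain or age. Which part of each organ was taken is not given in the labels.

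Fast transmission in the brain runs on ion channels assembled from several subunits. AMPA and kainate receptors pass excitatory current when glutamate binds, GABA-A and glycine receptors pass chloride, and nicotinic receptors and the Htr3 receptor pass cations. Metabotropic glutamate receptors and the other serotonin receptors act through G proteins. Subunit mixtures differ between brain regions, so a bulk sample reports both the regions it holds and the level per cell, and fewer cells of a type and less RNA per cell cannot be told apart.

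Scanner signal at its 75th percentile ran 919 to 954 on the brain arrays, 729 to 782 on the kidney arrays and 427 to 435 on the liver arrays, and 53.4% to 67.1% of spots were well above background. A level below is a log2 signal relative to the array's 75th percentile, and a difference is between 2 such levels of 1 probe. Because a fixed scanner background is divided by a smaller percentile in liver, a probe with no signal stood near -7 on brain arrays and near -6 on liver arrays. Levels of different genes come from different probes and are not set against each other.

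A receptor gene was counted as detected in a tissue when at least 1 of its probes was well above background on every array of that tissue. A gene with more probes has more chances under this rule. The 70 receptor genes had 137 probes, against 56605 for all 37069 genes. In brain 52 of 70 receptor genes were detected (74.3%), against 60.7% of all genes. In kidney 22 were detected (31.4%, against 55.8% of all genes) and in liver 19 (27.1%, against 51.7%). Brain alone detected 26 genes, among them Gria2, Gabrd, Chrnb2, Grm7 and Htr2a. Brain and kidney but not liver detected 7, among them Chrna4, Chrna7, Gabra4, Gria3 and Grik2. All 3 tissues detected 15, brain and liver 4, and no tissue 18.

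**Figure D1:**
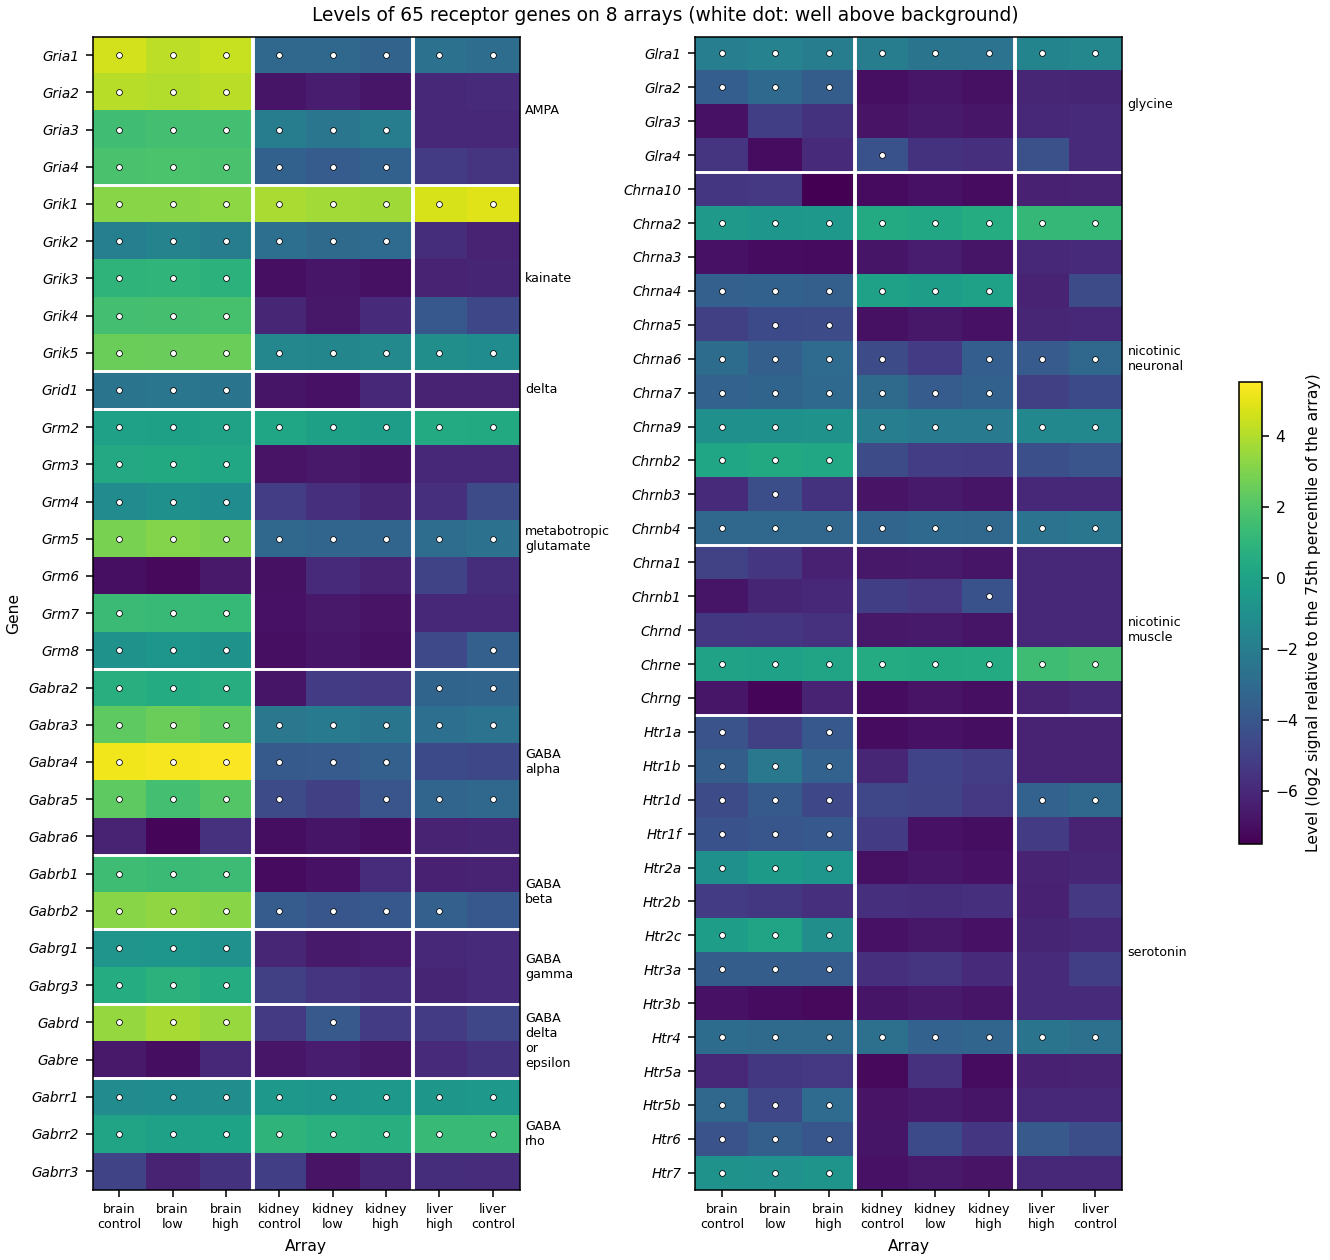
Level of the reported probe of 65 of the 70 receptor genes (rows, by family) on the 8 arrays (columns), as log2 signal relative to the 75th percentile of the array, with a white dot where the probe was well above background. The brain columns hold most of the dots; of all 70 genes 52 were detected there, against 22 in kidney and 19 in liver.

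Tissues were compared in a fit over all genes (limma with tissue and dose as factors, Benjamini-Hochberg adjustment over 37069 genes), and a gene was called at an adjusted p under 0.05 and a 2-fold difference. Against kidney, 46 receptor genes were higher in brain and 3 lower, where 16.9% and 18% of all genes were called in these directions. Against liver, 41 were higher in brain and 8 lower, with 17.7% and 38.0% of all genes called. Between kidney and liver, 7 receptor genes were higher in kidney and 9 lower, with 11.2% and 14.7% of all genes called. With normexp background correction the 49 calls between brain and kidney became 32 and the 16 between kidney and liver became 4. No share of all genes is given under that correction, so these falls are not set against all genes. The median difference over the 70 genes was 2.18 for brain minus kidney, 2.27 for brain minus liver and -0.64 for kidney minus liver, beside -0.31, -0.71 and -0.44 over all genes. The spread in this fit is that between arrays of 1 tissue after the dose terms, with 3 residual degrees of freedom, and the arrays may not stand for separate animals.

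Some of these calls concern genes that were below background on at least 1 array of each of the tissues compared. Between brain and kidney they were 6 of the 46 genes higher in brain (Chrna1, Chrna5, Chrnb3, Chrnd, Htr1a and Htr5a) and Chrnb1 among the 3 lower. Between brain and liver they were Chrna5 and Htr1a among the 41 higher in brain, and Chrna3, Grm6 and Htr3b among the 8 lower. Between kidney and liver they were Chrnb1 among the 7 higher in kidney, and Grik4, Grm6, Grm8 and Htr6 among the 9 lower. For such genes the fitted difference partly follows the scaled background. Where a gene was below background on every array of only 1 tissue, as Gria2 and Chrnb2 were in kidney, its p-value also rests on background levels there. Of the calls between brain and kidney, 40 higher and 2 lower in brain were well above background on every array of at least 1 tissue. Genes such as Gria2 and Grm7 meet this limit through brain alone, where they are high, so the count is no separate support. In a separate fit limited to genes that meet it, 23.7% and 24.5% of 23918 genes were called in these directions.

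Among the AMPA subunits, which carry most fast excitatory current, Gria2, the subunit that limits calcium entry, was detected in brain only. Its reported probe on chromosome 3 (80492452 to 80492511, mm9) stood at 4.11 in brain control, 4.0 in brain low and 4.13 in brain high. That probe was not well above background on any kidney or liver array, which makes it at least 449-fold higher in brain than kidney (adjusted p = 2.80e-08, limma) and at least 269-fold higher in brain than liver. Another Gria2 probe was above background on the high-dose liver array (-3.42) but not on the liver control array (-6.0). Gria4 was at 1.75 to 1.81 in brain and -3.71 to -3.46 in kidney on its reported probe, a difference of 5.33 ± 0.14 (SE, limma adjusted p = 3.40e-07). Its other probes were well above background on every brain array and on no kidney array.

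Gria3, another AMPA subunit, was well above background on every brain and kidney array with all 3 of its probes, and on neither liver array with any. Its reported probe stood at 1.51 to 1.64 in brain and -2.38 to -2.01 in kidney, so it was 3.74 ± 0.13 higher in brain (SE, adjusted p = 1.04e-06, limma). In kidney it was at least 3.59-fold higher than in liver. A second probe gave the same order, at 1.0 to 1.28 in brain and -2.28 to -2.13 in kidney. The third probe gave the opposite one, at -4.08 to -3.70 in brain and -2.66 to -2.25 in kidney.

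The kainate receptors tune transmitter release and excitability. Grik3 and Grik4 were detected in brain alone, at 0.84 to 1.03 and 1.62 to 1.71. Grik2 was at -2.06 to -1.68 in brain and -3.00 to -2.77 in kidney on its reported probe, while its 2 other probes were above background in brain only. The brain minus kidney difference of 1.04 ± 0.22 (SE, limma adjusted p = 0.00635) missed the 2-fold limit when scaled by the median (0.76), quantile normalised (0.83) or normexp corrected (0.57). Grik5, an accessory kainate subunit, was 4.03 ± 0.06 higher in brain than kidney on 1 probe (adjusted p = 4.06e-08, limma), yet its other probe was at -1.67 to -1.54 in brain and -1.31 to -1.15 in kidney.

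The delta receptor gene Grid1, whose product binds cerebellin-type organisers at synapses, was detected in brain only, at -2.50 to -2.39. Of the metabotropic receptors, Grm5, which couples to calcium release, stood at 2.89 to 3.09 in brain. Grm3 and Grm7, which lower cyclic AMP, were at 0.22 to 0.42 and 1.22 to 1.34. Grm6, the receptor of retinal ON bipolar cells, was below background on all 8 arrays with all 3 of its probes.

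GABA-A receptors are pentamers, usually of alpha, beta and gamma or delta subunits. In brain 5 of 6 alpha, all 3 beta, all 3 gamma and the delta subunit were detected. Gabra4, which pairs with delta at extrasynaptic sites, was at 5.22 to 5.41 in brain and -3.80 to -3.52 in kidney, a difference of 9.03 ± 0.07 (SE, adjusted p = 1.18e-08, limma). Gabra6, which marks cerebellar granule cells, was not well above background on any array.

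The nicotinic subunits Chrna4 and Chrnb2 together form the high-affinity nicotine receptor of the brain. Chrnb2 followed the common pattern, at 0.16 to 0.40 in brain and below background elsewhere, so at least 30.3-fold higher in brain than kidney (adjusted p = 1.92e-06, limma). Chrna4 went the other way. Its only probe, on chromosome 2 (180757309 to 180757368, mm9), stood in brain at -3.52 (control), -3.45 (low dose) and -3.58 (high dose). In kidney it stood at -0.06 (control), -0.19 (low dose) and -0.05 (high dose).

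Chrna4 was thus 3.42 lower in brain than in kidney on the log2 scale (difference -3.42 ± 0.35, SE, limma adjusted p = 0.000211), and the 2 tissues did not overlap. It was at least 14.9-fold higher in kidney than in liver. Its partner Chrnb2 was not well above background on any kidney array. Chrna7, which forms receptors of 1 subunit kind, was at -3.40 to -3.06 in brain and -3.74 to -3.00 in kidney on its reported probe, levels that overlapped. On its other probe the tissues did not overlap, at -3.44 to -3.01 in brain and -5.10 to -4.35 in kidney, where it was above background on 1 of 3 arrays.

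Markers of other cells were also read in the kidney pieces. Of the 9 adrenal cortex markers on the array, 6 were above background in kidney control, and their summed signal on the same log2 scale was 2.47 (control), 0.62 (low dose) and 0.45 (high dose). Of the 14 markers of chromaffin cells and peripheral nerve cells, 10 were above background in the control, 5 in kidney low and 7 in kidney high, with summed levels of 5.02 (control), 5.03 (low dose) and 4.96 (high dose). The part of these cells in the kidney levels of Chrna4 and Gria3 was not tested.

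**Figure D2:**
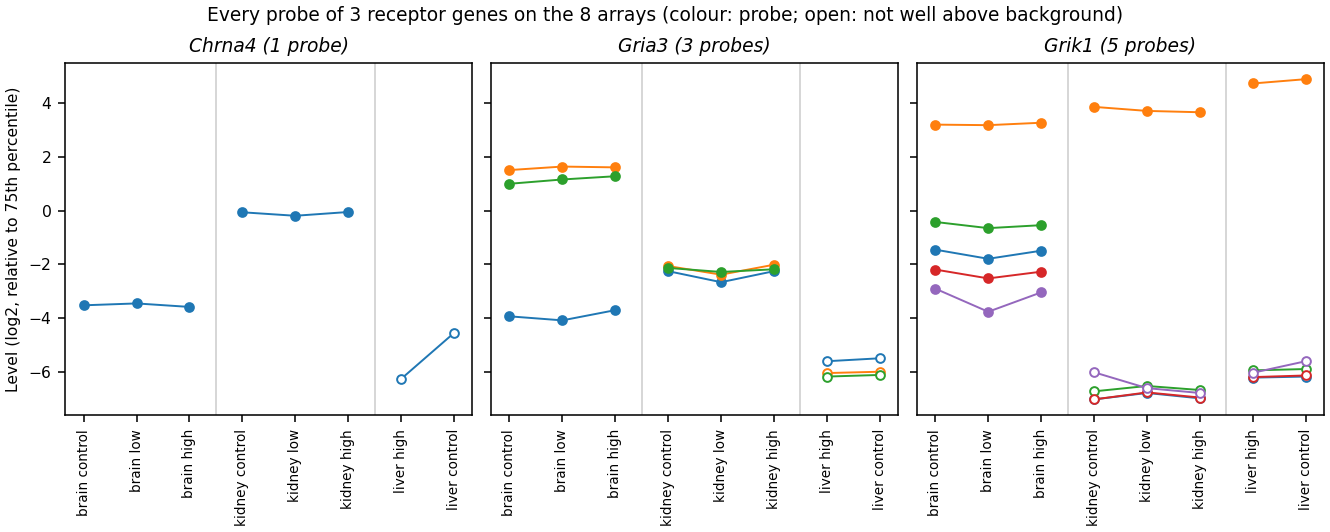
Levels of every probe of Chrna4, Gria3 and Grik1 on the 8 arrays, as log2 signal relative to the 75th percentile, with one colour per probe and open circles where a probe was not well above background. Chrna4 was lower in brain (-3.58 to -3.45) than in kidney (-0.19 to -0.05), and 1 Grik1 probe was above background on all 8 arrays while the other 4 were so on the brain arrays alone.

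The serotonin receptors were detected mostly in brain: 10 of 14 were detected in brain, 1 in kidney (Htr4) and 2 in liver (Htr1d and Htr4). Htr2a, a receptor of cortical pyramidal cells, was at -1.0 to -0.44 in brain and at least 16.4-fold higher there than in kidney (adjusted p = 1.13e-06, limma). Htr7 was at -0.92 to -0.78 and at least 14.7-fold higher in brain than kidney. Htr3b and Htr5a were below background on every array. Tph2, which makes serotonin in raphe neurons, and Slc6a4, the serotonin transporter that those neurons carry, were also below background on the brain arrays, Tph2 at -7.26 to -5.85 and Slc6a4 at -7.20 to -6.93. In kidney Slc6a4 was above background on all 3 arrays, at -1.12 to -0.87.

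Glycine receptor genes were few: Glra1 and Glra2 were detected in brain, and Glra3 and Glra4 in no tissue. Glra2, the alpha subunit of immature receptors, was at -3.66 to -3.07 in brain and at least 2.44-fold higher there than in kidney. Of the nicotinic subunits of skeletal muscle, Chrna1, Chrnd and Chrng were below background on all arrays. Chrnb1 was above it on the high-dose kidney array alone, and the reported probe of Chrne was above it on all 8.

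Signal on all 8 arrays, as for Chrne, Chrna2, Chrna9, Grik1 and the rho subunits Gabrr1 and Gabrr2, was set beside the probe sequences. This comparison was chosen after the values were seen. Grik1 shows the contrast: 4 of its 5 probes were well above background on the 3 brain arrays and no other, while the fifth, the reported one, stood at 3.18 to 3.27 in brain, 3.66 to 3.86 in kidney and 4.73 to 4.89 in liver. That probe holds a run of 5 C, and the brain-only probe shown with it holds none that long. The stretches below are 30 bases of each 60-base probe as the array files give it, 5′ to 3′, with the longest run of C in capitals where it is 5 or more. They are shown because they are receptor probes with such a run that signalled on all arrays, with exceptions after them. Each name is followed by the span of the whole probe in mm9.
Grik1 (brain only, chr16:87896231-87896290, minus strand): gctcacatagatattacttgaggagtgaaa
Grik1 (all 8 arrays, chr16:87935520-87935579, minus strand): cactgCCCCCtctctggcctttatatttga
Chrna2 (chr14:66771724-66771783, plus strand): aCCCCCCatcctccttgcatgtgagtgaaa
Chrna9 (chr5:66335518-66335577, plus strand): cttctcaatgagCCCCCCaaaatatgtatg
Gabrr2 (chr4:33182776-33182835, plus strand): gttcacaagaatCCCCCCtttccccaccta
Grm2 (chr9:106547222-106547281, minus strand): ctaccccatgcctgCCCCCaaagtcaccta
Glra1 (chr11:55327763-55327822, minus strand): gctgtggtatgtgCCCCCatcacaccctta
Gria1 (chr11:57141228-57141287, plus strand): agaaatgaaacaCCCCCtccaaccaccaca
Grik5 (chr7:25794943-25795002, minus strand): aaatttctatgagacgCCCCCagggagagg
Chrna9 (no array, chr5:66368222-66368281, plus strand): tgacctagggtaccagggcgggatCCCCCa
Grik4 (brain only, chr9:42328570-42328629, minus strand): tcatcagttgaattCCCCCtaggaaggggc

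Of the 12 receptor probes with a run of at least 5 C, 9 were well above background on all 8 arrays, against 8 of the 125 receptor probes without one (6.4%). Over all 56605 probes the shares were 71.3% with such a run and 44.1% without. By the longest run the share was 38.9% at 0 or 1 C, 41.5% at 2, 47.0% at 3, 55.2% at 4, 69.7% at 5 and 78.7% at 6 or more. Runs of G showed shares between 43.1% and 47.4%. Shares also differed with base composition. Within probes of above 40% to 45% G and C the shares were 67.2% with a run of C and 44.5% without, and within those of above 50% to 55% they were 75.4% and 55.2%.

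The second probe of Chrna9 holds its run near the 3′ end and was below background on all arrays, where the first was at -1.0 to -0.87 in brain, -2.18 to -1.93 in kidney and -1.42 to -1.41 in liver. Likewise the other Chrne probe and the other Glra1 and Grm2 probes, none on this list, were below background on every brain and liver array. That Grm2 probe lies on the plus strand and the reported one on the minus strand, so the 2 are not a like comparison. In kidney that Chrne probe was above background at both doses and that Glra1 probe at the high dose. Whether these signals come from the named transcripts was not tested.

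These probes bear on the detection counts in all 3 tissues. Without probes that hold a run of 5 or more C, 45 receptor genes were detected in brain, 14 in kidney and 11 in liver, in place of 52, 22 and 19. When the majority of a gene's probes had to be above background, 8 were detected in kidney and 7 in liver, against 41 in brain. Both settings were chosen after the values were seen. No share of all genes is given under either, so the drop is not set against that of other genes. Of the 8 genes called lower in brain than liver, 4 (Chrna2, Chrne, Gabrr2 and Grik1) rest on such probes and 3 were below background in both tissues. The remaining one, Htr1d, was at -4.70 to -3.83 in brain and -3.41 to -3.18 in liver. None of the 6 genes that were higher in kidney than liver and above background on every kidney array (among them Chrna4, Chrna7, Gria3 and Grik2) rests on such a probe.

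**Figure D3:**
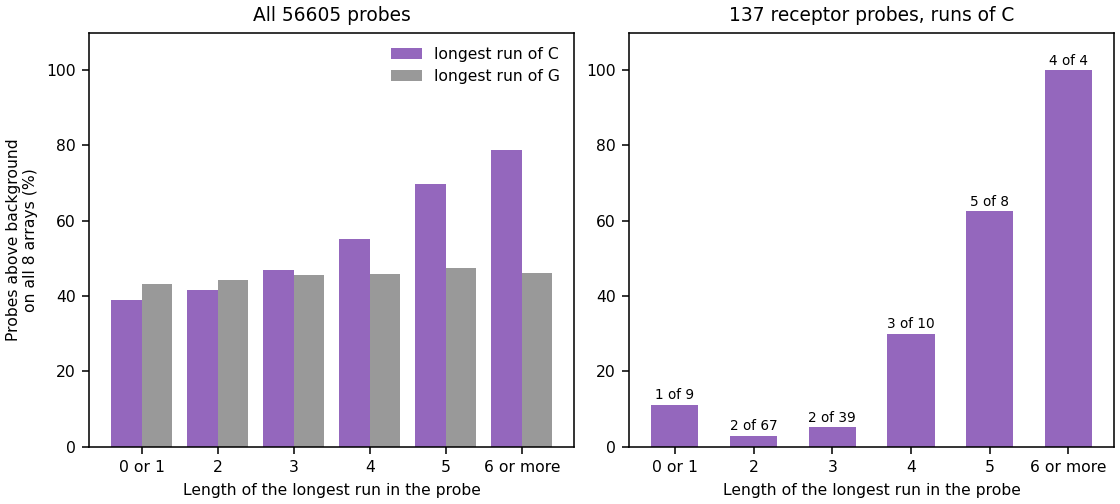
Percent of probes that were well above background on all 8 arrays by the length of the longest run of 1 base, for runs of C and G over all 56605 probes (left) and for runs of C over the 137 receptor probes (right, with counts). The share rises with the run of C, reaching 69.7% at 5 and 78.7% at 6 or more, and stays between 43.1% and 47.4% for runs of G.

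Lead exposure was then compared with control in each tissue by a size rule on the reported probe of each gene: a log2 difference of at least 1, a probe well above background and unsaturated on both arrays, and a difference of more than 3 times the array error, which combines the scanner software's errors of both spots. In brain at the low dose, the serotonin receptor genes Htr1b (higher) and Htr5b (lower) passed among 52 measured receptor genes, where 0.750% of all measured genes passed, 0.444% higher and 0.306% lower. At the high dose 0 of 53 passed, where 0.45% of all genes did. The median difference of the receptor genes was 0.05 for low minus control and 0.01 for high minus control, with SDs of 0.39 and 0.18 over the genes, beside 0.25 and 0.24 over all genes.

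The glutamate receptor genes stayed within 2-fold of the control at both doses. The AMPA subunits lay between -0.39 (Gria1) and 0.13 (Gria3) at the low dose and between -0.20 and 0.10 at the high dose. Gria1 had 4.59 (control), 4.20 (low dose) and 4.39 (high dose), and its second probe differed by -0.44 and -0.16. None of these differences passed the rule.

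For Grik1 the 4 brain-only probes differed from control by -0.34, -0.23, -0.32 and -0.87 at the low dose, while the probe with signal in all tissues, the reported one, differed by -0.02. At the high dose the 4 lay between -0.14 and -0.04.

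Among the GABA-A genes, Gabra5 was the only one whose reported probe passed at 1.5-fold. Gabra5 encodes the alpha subunit of extrasynaptic receptors that is abundant in the hippocampus. Its reported probe on chromosome 7 (64663070 to 64663127, mm9) stood at 2.29 (control), 1.62 (low dose) and 2.01 (high dose). The low-dose array was the lowest, at -0.68 from control (array error 0.20), and the second probe gave -0.81. At 1.5-fold, 3 of 52 receptor genes passed at the low dose, where 1.65% of all genes did. The delta subunit Gabrd was at 3.82 at the low dose, against 3.42 in the control (difference 0.39). Gabra3, an alpha subunit, had 1 probe of 3 that was above background on the control array (-2.06) but not on the low-dose (-7.25) or high-dose (-7.27) array. Its other probes did not show that drop: the reported one stood at 2.25 (control), 2.60 (low dose) and 2.28 (high dose), and the remaining one at -1.85 to -1.83.

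Chrna6, a nicotinic subunit of dopamine neurons, was at -2.90 (control), -3.58 (low dose) and -2.95 (high dose). The low-dose difference of -0.68 was under 3 times its array error of 0.25. The glycine subunit Glra2 was at -3.07 at the low dose, against -3.61 in the control (difference 0.54, array error 0.26).

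Htr1b, an inhibitory serotonin receptor on axon terminals whose mRNA is known to be abundant in the striatum, was higher at the low dose. Its reported probe on chromosome 9 (81522512 to 81522571, mm9) stood at -3.67 (control), -2.3 (low dose) and -3.42 (high dose). The low-dose difference was 1.37 (array error 0.25), and the high dose was 1.12 below the low dose (difference -1.12). Its second probe, close to background at -4.61 in the control and -4.57 at the low dose, differed by 0.04. The mean of both probes gave 0.71 for low minus control, under the 2-fold limit. At the high dose the second probe was below background (-6.63), where the reported one was 0.25 above the control.

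Htr5b, an inhibitory serotonin receptor known from the rodent habenula and hippocampus, was lower at the low dose. Its only probe, on chromosome 1 (123406629 to 123406688, mm9), stood at -3.16 (control), -4.72 (low dose) and -2.93 (high dose). The differences were -1.56 for low minus control (array error 0.37) and 1.79 for high minus low. The low-dose array stood apart, near the floor of signal above background on that array (-5.11). With normexp background correction the low-dose differences were 0.77 for Htr1b and -0.54 for Htr5b, so neither passed, and neither had enough signal for the stricter filter on dim probes.

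Htr2c, a receptor that is dense in the choroid plexus epithelium and also found in neurons, was lowest at the high dose. Its reported probe on chromosome X (143631655 to 143631714, mm9) stood at -0.25 (control), 0.07 (low dose) and -1.08 (high dose). High minus control was -0.83 (array error 0.21), the only reported probe of a receptor gene to pass at 1.5-fold at that dose, where 0.958% of all genes passed. High minus low was -1.15. In that comparison, which shares its arrays with those above, Htr1b, Htr2c and Htr5b passed among 53 measured genes, where 1.04% of all genes did. The first and second were lower and the third higher, the directions of 0.734% and 0.308% of all genes.

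Among other serotonin receptors, Htr2a was at -1.0 (control), -0.44 (low dose) and -0.65 (high dose), differences of 0.56 and 0.34 from control. Htr6 and Htr1d, both near background, differed by 0.61 and 0.65 at the low dose with array errors of 0.33 and 0.36. Htr4 differed by -0.08 and -0.09 on its reported probe, and by -0.66 and -0.62 on a second probe that was above background in brain alone, at -2.38 (control), -3.04 (low dose) and -3.00 (high dose). Htr1a was above background on the high-dose and control arrays but not on the low-dose one, so it was at least 2.16-fold higher at the high dose than at the low dose.

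**Figure D4:**
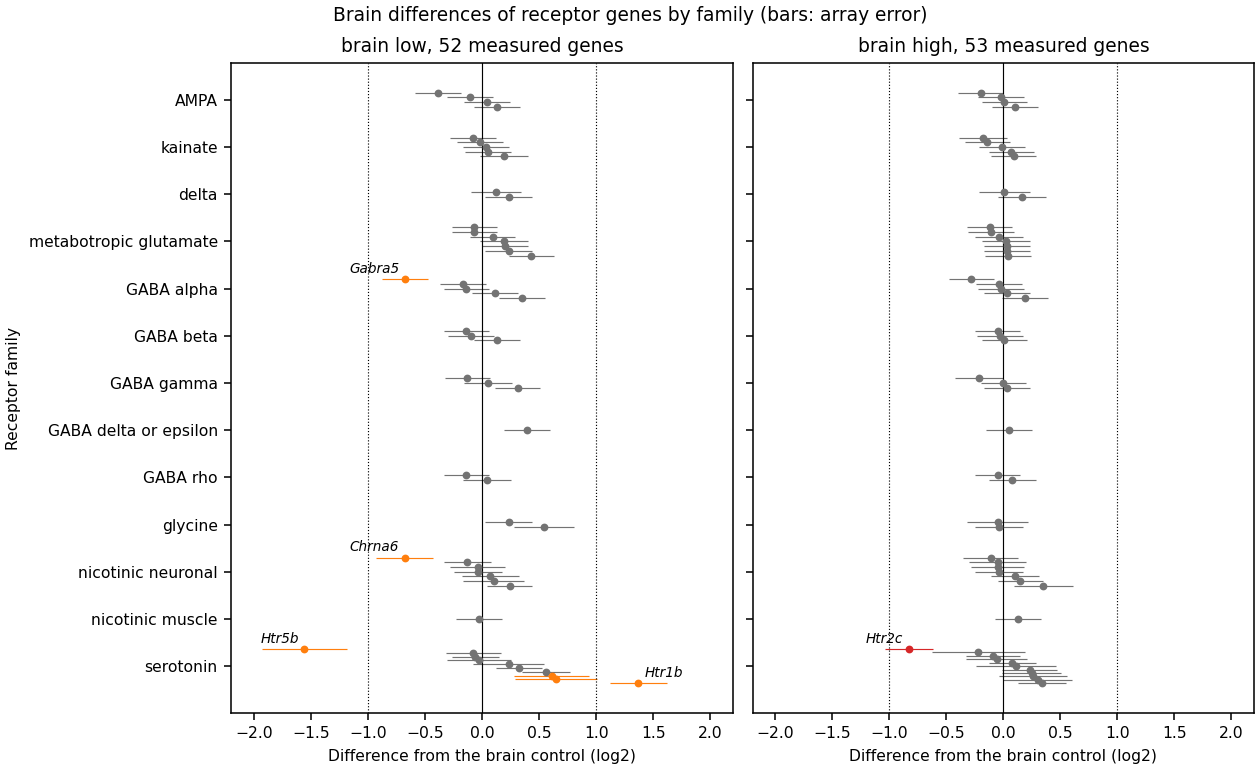
Difference of each measured receptor gene from the brain control (log2), by receptor family, at the low dose (left, 52 genes) and the high dose (right, 53 genes), with bars for the array error and dotted lines at 2-fold. Htr1b (1.37) and Htr5b (-1.56) lie past the dotted lines at the low dose, and no gene does at the high dose, where Htr2c (-0.83) lies farthest from 0.

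Regional marker genes moved on the same brain arrays. All 14 striatum markers were above the control at the low dose, and 13 of them passed the size rule (median difference 1.59). Their summed level was 6.12 (control), 7.71 (low dose) and 5.5 (high dose). Of the 12 hippocampus markers, 10 were below the control at the low dose, and 5 passed the size rule, all lower (median -0.85). Their summed levels were 4.89 (control), 4.48 (low dose) and 4.72 (high dose). The 12 choroid plexus markers had a median of -0.31 at the low dose. At the high dose all 11 measured were below the control, and 9 passed the size rule (median -1.62). Their summed levels were 6.22 (control), 5.92 (low dose) and 4.35 (high dose). Of all measured genes, 0.444% passed higher and 0.306% lower at the low dose, and 0.45% passed in either direction at the high dose.

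Of the general neuron markers 0 of 10 passed at either dose, and their medians were -0.04 and 0.05. The dopamine receptor gene Drd1, a striatum marker, was at 0.78 (control), 2.45 (low dose) and 0.15 (high dose). Ttr, the transthyretin gene of the choroid plexus, was at 4.19 at the high dose, against 6.09 in the control. The part of these marker shifts in the values of Htr1b, Htr5b, Gabra5 and Htr2c was not tested, and with 1 array per group the tissue piece and the dose cannot be told apart. Of the spermatid markers 5 of 5 measured were higher on the high-dose brain array (median 3.6), and no receptor gene here is named from that change.

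**Figure D5:**
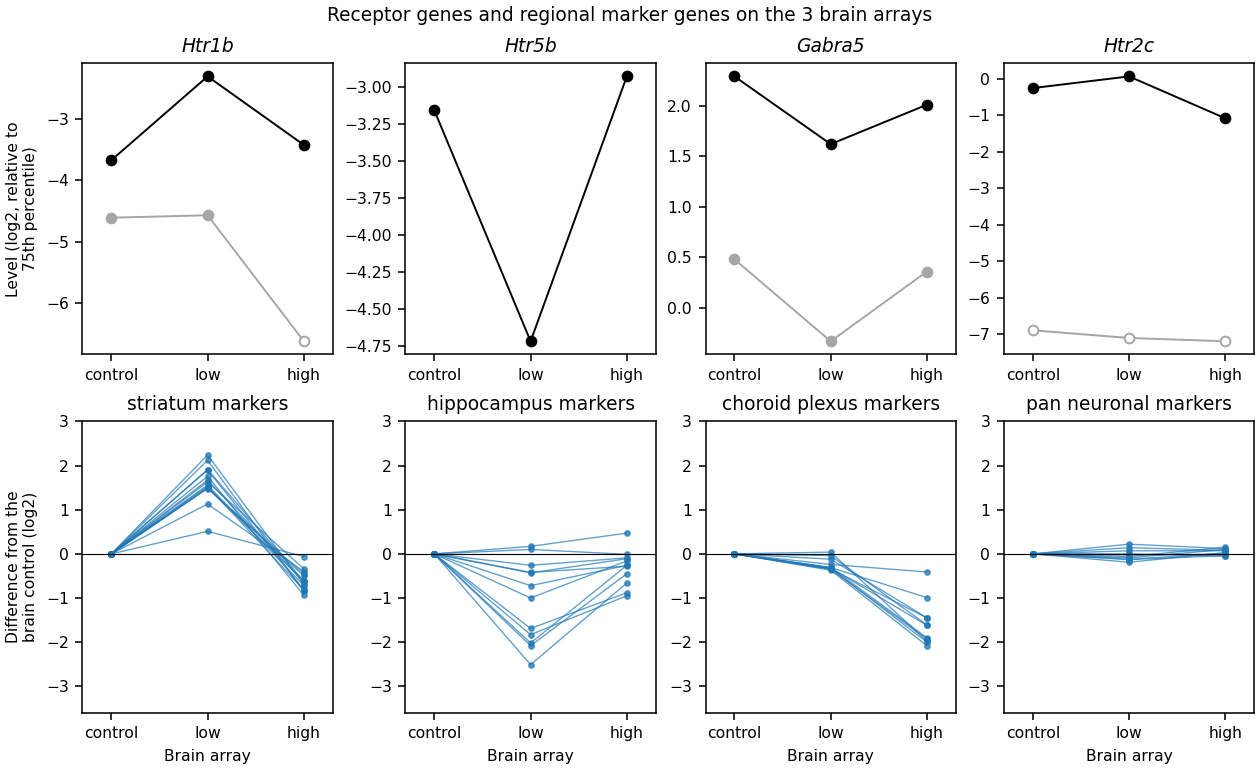
Upper panels: levels of Htr1b, Htr5b, Gabra5 and Htr2c on the 3 brain arrays (log2 signal relative to the 75th percentile; black for the reported probe, grey for the other, open where not well above background). Lower panels: differences from the control of the striatum, hippocampus, choroid plexus and general neuron markers that were above background on all 3 arrays. The striatum markers were higher at the low dose (median 1.59), the choroid plexus markers lower at the high dose (median -1.62), and the general neuron markers stayed near 0.

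In kidney and liver 0 receptor genes passed the rule. In kidney 22 were measured in the low-dose and 24 in the high-dose comparison, where 0.490% and 1.66% of all genes passed, and in liver 18 at the high dose, where 0.792% did. At the low dose 19 of the 22 kidney differences were below 0 (median -0.16), where 52.1% of all genes were below 0 (median -0.01). At the high dose 14 of 24 were below 0 (median -0.06), against the same control array. In liver 14 of 18 were below 0 (median -0.09), where 53.9% of all genes were. In each of these comparisons 9 of the measured genes rest on probes with a run of at least 5 C that signalled on all arrays. Whether those signals come from the named transcripts was not tested.

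Among the reported probes the widest kidney differences from control were those of Chrna6, Chrna7 and Htr4. Chrna6 differed by 0.90 at the high dose (array error 0.36), and Chrna7 by -0.74 at the low dose (array error 0.31) and -0.48 at the high dose. Htr4 differed by -0.70 and -0.56. Some probes other than the reported ones differed more. Gabrb2, a beta subunit, had a second probe above background on all kidney arrays, at -3.03 (control), -4.08 (low dose) and -2.48 (high dose), so -1.06 for low minus control and 1.60 for high minus low, where its reported probe differed by -0.30 and 0.10. The other Chrne probe was at -6.75 (control, below background), -3.87 (low dose) and -3.71 (high dose), and the other Glra1 probe at -6.91 (control) and -6.68 (low dose), both below background, and -4.01 (high dose). Chrna4 lay within -0.12 and 0.02 of the control at both doses. Across tissues, limma called 0 of the 14 receptor genes in the fit of shared dose effects, with 0 at the high dose and 1 at the low dose at an unadjusted p under 0.05. That fit held only genes whose reported probe was well above background on all 8 arrays. For 9 of the 14 that probe holds a run of at least 5 C. Of the 17353 genes in that fit 0 were called for either dose (0% of them), with 1173 at the high dose and 420 at the low dose under that unadjusted threshold.

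Other genes of these pathways were taken from 9 lists with 84 genes on the array: receptors outside the naming rule, auxiliary and scaffold proteins, nicotinic chaperones, and enzymes and transporters that supply or clear glutamate, GABA and glycine, acetylcholine and serotonin. In brain 0 of 76 measured genes passed at either dose, where 0.75% (low dose) and 0.45% (high dose) of all genes did. The list medians in brain lay between -0.15 (glutamate supply) and 0.15 (GABA and glycine supply) for low minus control, and between -0.34 (acetylcholine supply) and 0.09 (other receptors) for high minus control. In kidney 0 of 46 passed at the low dose and 1 of 47 at the high dose (the postsynaptic scaffold gene Dlg4, lower, at -4.44 against -3.28 in the control), and in liver 0 of 39. The shares of all genes were 0.49% (kidney low), 1.66% (kidney high) and 0.792% (liver high).

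Between the brain doses, where 1.04% of all measured genes passed, 2 of 77 did. They were Cacng4, an auxiliary AMPA receptor protein, at 0.51 at the high dose and 1.52 at the low dose, and Slc18a3, the vesicular acetylcholine transporter, at -2.81 at the high dose and -1.52 at the low dose. The 7 measured genes for GABA and glycine supply had a median difference from control of 0.15 in brain low, with 6 above 0, and -0.13 in brain high, with 0 above 0. Slc32a1, which loads GABA into vesicles, was at 4.69 (control), 5.11 (low dose) and 4.56 (high dose).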

How the data were processed

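Each of the 8 samples was hybridised to 1 array. Per the submitters' processing notes, Feature Extraction 12.0.3.1 (Agilent) read the scans, and the deposited values are linear spot intensity. Per the file headers, the intensity had its background and spatial trend removed, with no scaling across arrays. Other deposited columns are 0 or 1 flags (score) for spots above background, saturated or outlying. The deposited value table equals this intensity divided by the array's 75th percentile over all spots.

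Control and flagged spots were left out, spots of a probe averaged as log2, and each array's 75th percentile subtracted. Each gene is represented by the probe whose mean level over all 8 arrays was highest. Of the 137 receptor probes 99 matched a RefSeq accession, and 0 of them had another symbol. Positions are those of the files (mm9). Bounds use the lowest signal above background. Tests used limma 3.58.1 in R 4.3.3, checked on simulated data, with Python 3.11.15 for the rest. Members, lists and named genes (past a size rule between doses, detected in kidney or liver, or among the highest of a family in a tissue) were chosen with earlier results of these data known. Alternatives covered scaling, background correction, filters, probes and left-out arrays. Some genes and sequences are not reported here.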

Additional observations from a re-analysis of the deposited data

How the results depend on the processing

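No paired analysis was possible because each group had 1 array and the labels give no replicate numbers, and the tissue fit already holds dose as a factor. In brain low minus control the 2 receptor genes past the size rule became 0 with normexp background correction and 0 when dim probes were filtered more strictly, and 1 when probes of a gene were averaged. In brain high minus control the count of 0 became 1 at 1.5-fold. In brain high minus low the 3 genes became 1 with normexp and 1 with the stricter filter. Without probes with a run of 5 or more C, 45 genes were detected in brain in place of 52. Detected genes in kidney were 13 under stricter detection, 14 without probes that hold a run of 5 or more C and 8 when most of a gene's probes were needed, and in liver 9, 11 and 7. With normexp the tissue calls were 32 for brain minus kidney and 4 for kidney minus liver, in place of 49 and 16. With 1 array left out they were 46 to 49 for brain minus kidney, 48 to 49 for brain minus liver and 13 to 16 for kidney minus liver, and the shared dose effects stayed at 0. No share of all genes is given under these settings other than 1.5-fold, so the changes cannot be set against all genes. The lower level of Chrna2 in brain than kidney missed the 2-fold limit without brain high (-1.0) or kidney high (-0.99), as did the higher level of Grik2 without brain low or kidney low (0.90 each). Grik1 in brain minus liver turned from -1.57 to 3.00 when its probes were averaged, since 4 of the 5 signalled in brain alone. Median scaling moved Grik2 (0.76) in brain minus kidney under 2-fold. The causes of the other changes were not tested. Signal near background limits Htr1b, Htr5b, Htr1d and Htr6.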

Other observations

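Probes of 1 receptor gene often differed in their tissue pattern. The 2 Gabrr1 probes overlap on chromosome 4 (33250489 to 33250548 and 33250509 to 33250568, mm9), yet in liver the first stood at 0.70 at the high dose and 0.85 in the control, and the second at -0.63 at the high dose and -0.55 in the control. In brain they were at -2.02 to -1.84 and -1.21 to -1.13. Neither holds a run of 5 or more C. For Gabra3, of the X chromosome, the reported probe was at 2.25 to 2.60 in brain and above background on all 8 arrays, while a second was at -1.85 to -1.83 in brain and below background elsewhere, and the remaining one was above background on the brain control array (-2.06) alone. For Gabrg1, 4 of 5 probes were below background on at least 1 brain array, where the reported one was at -0.92 to -0.66.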
